A study of Mus musculus with 8 samples.

Results

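Peritoneal macrophages from mice lacking FURIN in LysM+ cells were compared with WT macrophages after 1 h of LPS, on the 2 arrays of the series that carry this time point in their titles, out of 8 arrays in all. Each array was hybridised with KO RNA in one dye and WT RNA in the other, KO in Cy5 on replicate 1 and in Cy3 on replicate 2. All 55681 gene probes of the array were used, without regard to their values, and after averaging and a filter on dim probes 36947 genes and transcripts entered the tests, 20845 of them with a gene symbol. The KO cells came from LysMCre-fur(fl/fl) mice and the controls from WT littermates. The floxed mice had been backcrossed repeatedly with C57BL/6 mice, and the LysMCre mice were of the C57BL/6 background. Cells of both genotypes received E. coli 0127:B8 LPS at 1 μg/ml. The remaining arrays hold the same genotypes without LPS or after 4 or 24 h, and the labels call the replicates biological. A growth protocol attached to every sample names 4 h of stimulation, so the 1 h assignment rests on the titles and on the labels for the stimulus. Which floxed or Cre alleles the WT littermates carried, the age of the mice used for the arrays and any pooling of mice are not given in the sources used here.

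FURIN is a proprotein convertase of the secretory pathway that cleaves precursors such as pro-TGF-β1, integrins, matrix metalloproteinases and growth factor receptors at basic motifs. LPS binds the TLR4 and MD-2 receptor complex of macrophages, which signals through MYD88 and TRIF to NF-κB, MAP kinases and interferon regulatory factors. Immediate early genes and the first cytokines and chemokines are transcribed within the first hour, before most secondary, interferon-dependent genes. LysMCre is inserted in the Lyz2 gene, is active in macrophages and neutrophils, and replaces the lysozyme transcript of the allele that carries it.

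The labels were first compared with the data. Furin was lower in KO on both arrays, at a log2 normalised intensity of 10.71 in KO against 11.27 in WT on replicate 1 and 10.69 against 11.22 on replicate 2. The KO and WT values did not overlap, and the mean log2 KO/WT was -0.55 with a 95% confidence interval of -0.79 to -0.30, a decrease of 31.5% in KO. The adjusted p of limma was 0.44 without a term for the replicate number and 0.047 with it. The array has 1 probe for Furin, and whether it lies in the deleted part of the gene was not analysed here, so its signal need not measure the deletion. Lyz2, the lysozyme gene into which Cre was inserted, was at 17.08 in KO against 18.17 in WT on replicate 1 and at 16.80 against 17.68 on replicate 2. Its mean log2 KO/WT was -0.98 (SE 0.11), with a limma adjusted p of 0.19 without the block and 0.0053 with it. Each of the 11 macrophage markers measured exceeded background in KO and in WT on either array.

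The response to LPS was plain in both genotypes. Il1b rose from log2 intensities of 9.69 and 10.21 in unstimulated WT cells to 16.90 and 17.40 at 1 h, and from 10.93 and 11.66 to 17.04 and 17.25 in KO cells. Il6 rose by 9.18 in WT and 7.88 in KO on the log2 scale, and Tnf by 6.81 and 6.41. These increases compare channels of different arrays and are given as a description, with no test. Of 25 immediate early transcription factors 20 rose over 2-fold in each genotype, beside 497 of 36931 features in WT and 464 in KO. The median increase of the 25 was 1.92 in WT and 1.79 in KO. Of 17 NF-κB subunits and inhibitors 11 rose over 2-fold in WT and 12 in KO, beside the same 497 and 464 of all features.

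**Figure D1:**
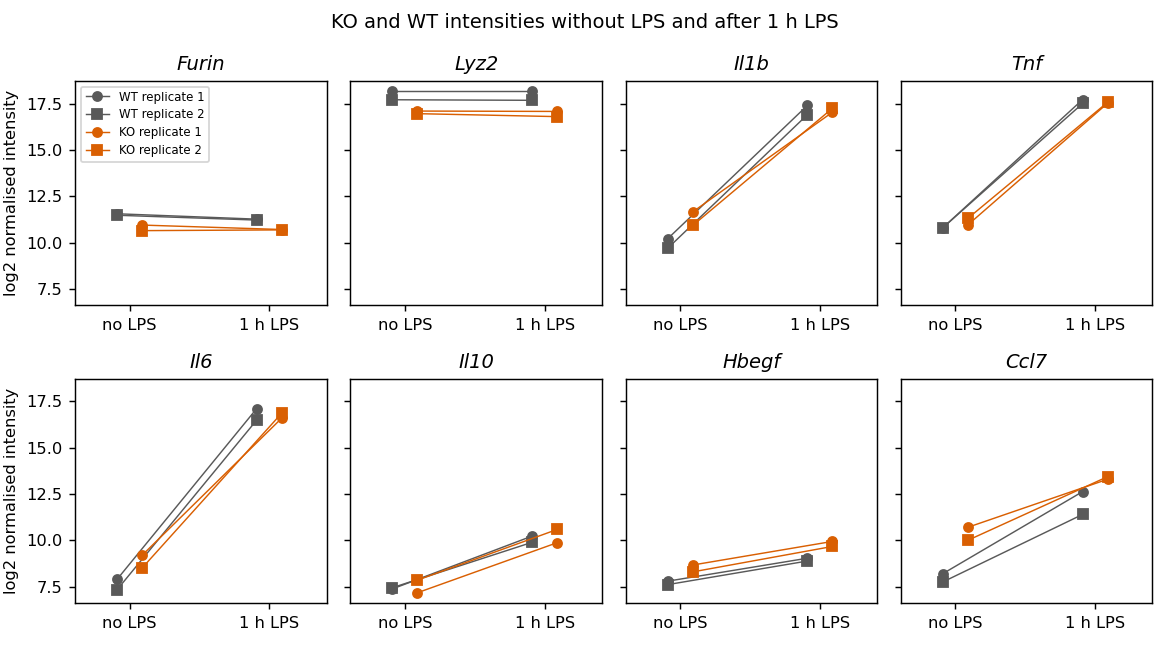
Log2 normalised intensity (y axis) of 8 genes without LPS and after 1 h of LPS (x axis) in WT (grey) and KO (orange), circles for replicate 1 and squares for replicate 2. Il1b, Tnf and Il6 climbed in both genotypes to levels that overlapped at 1 h, whereas Furin and Lyz2 were lower and Hbegf and Ccl7 higher in KO on both 1 h arrays.

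Across all genes and transcripts tested, no KO/WT difference at 1 h passed an adjusted p of 0.05 in limma without a replicate term. An unadjusted p under 0.05 was reached by 2054, with 0.19 as the lowest adjusted p. With the replicate number as a block, 218 were called (0.59% of those tested), 111 of them lower in KO (0.3%) and the others higher (0.29%), and 173 of the 218 have a gene symbol, 81 higher and 92 lower. The block takes out what the arrays of one replicate number share at every time, so its error is the spread between times within a replicate, and it says little of how KO mice vary. Replicate number and dye orientation cannot be told apart. The 218 became 0 on the software's own processed signals, 38 when the probes of a gene were averaged, 20 without replicate 1 and 17 without replicate 2 of 1 h, 99 without either unstimulated array and 586 without either 24 h array. Below, "called" refers to the fit with the block, which made more false calls than the nominal rate on data simulated with the spread of each feature itself.

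The ratios of the 2 arrays had little in common. Over 19361 genes well above background, Pearson's r between their log2 KO/WT was -0.03, a correlation across genes, which are not independent replicates. Replicate 1 correlated with the unstimulated array of its own number at 0.67 and replicate 2 at 0.74, while the crossed pairings gave -0.05 and -0.08. Of all features 48.6% had the same sign on both 1 h arrays, 24.1% higher and 24.5% lower on both. Of the 218 called, 200 had the same sign on both arrays. The mean difference exceeded 2-fold for 17 features higher (0.046%) and 14 lower in KO (0.0379%), and of all features only Artn exceeded 2-fold in the same direction on each array (0.00271%).

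**Figure D2:**
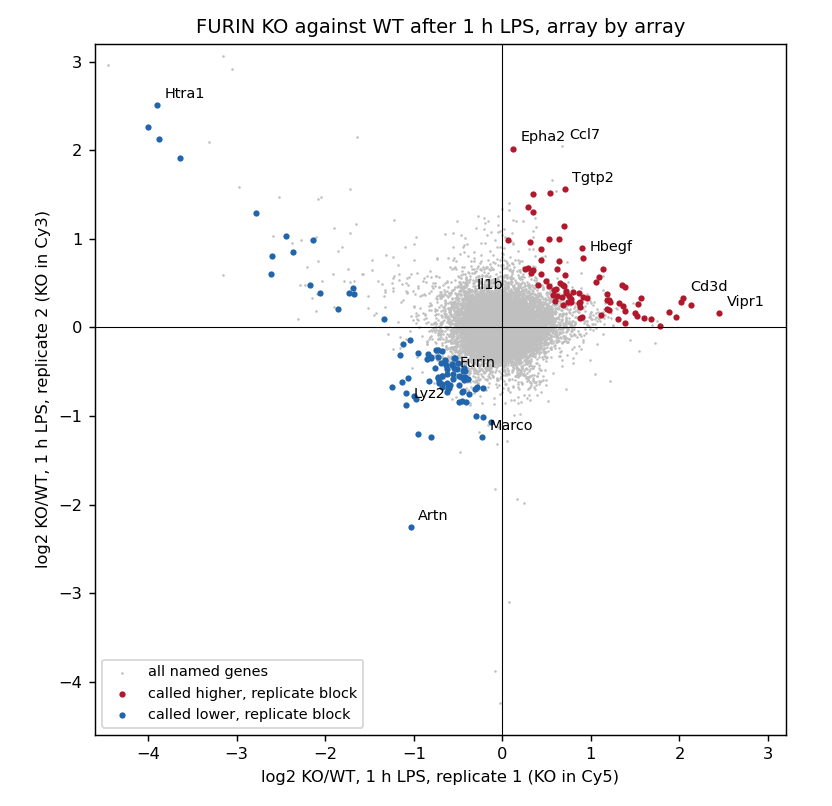
Log2 KO/WT at 1 h on replicate 1 (x axis) and replicate 2 (y axis) for all named genes (grey), with the genes called higher (red) or lower (blue) with the replicate block. Called genes fill the upper right and lower left of the plot, apart from 17 genes such as Htra1 that lie in the upper left with ratios of opposite sign.

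Genes higher in KO fell along separate arms, one led by lymphocyte genes on replicate 1. Cd3d, a chain of the T cell receptor complex, was at 11.35 in KO against 9.31 in WT on replicate 1 and at 10.83 against 10.50 on replicate 2. The WT channel of replicate 1 was the low value among the 4, and without LPS it was also low, at 9.28 against 10.55 to 10.77 in the other channels. Its mean log2 KO/WT of 1.18 (SE 0.53 without and adjusted p of 0.0033 with the block, limma) lies between 2.04 and 0.33. Vipr1, a receptor for vasoactive intestinal peptide, was at 10.88 against 8.43 on replicate 1 and at 10.09 against 9.92 on replicate 2. Skap1, an adaptor of T cell receptor signalling, had ratios of 2.13 and 0.25, Ms4a4b 2.02 and 0.29, the transcription factor Lef1 1.89 and 0.17, the chromatin organiser Satb1 1.57 and 0.33, and the TEC family kinase Txk 1.39 and 0.46. All of these were called, and for each the ratio on replicate 1 was the larger.

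Of the 14 measured T and NK cell markers, 11 were well above background, while Klrb1c, Ncr1 and Gzmb exceeded it in no channel at 1 h. Of the 14, 3 were called higher (Cd3d, Cd3g and Zap70) and none lower, beside 81 higher among all 20845 named genes. The median ratio of the 14 was 0.48 on replicate 1 and 0.03 on replicate 2, against a median over all features of -0.0028 for the mean of both arrays. The summed intensity of the 14 was 1.74 times higher in KO on replicate 1 and 1.01 times on replicate 2. Without Cd2, the brightest of them, the sum in KO was at 1.91 and 0.98 of the WT value. Correlations with the median of the 11 T and NK markers well above background were taken over the 8 arrays, which share replicate numbers and dyes. Among 78 named genes called higher that are not T and NK markers themselves, 18 (23.1%) had a correlation of at least 0.9, against 0.998% of all named genes. None of 92 called lower did. Of the 11 B cell markers 9 were higher in KO on both arrays, beside 24.1% of all features, and none was called, with summed intensities 1.54 and 1.25 times higher, among them Vpreb3 at 1.77 and 0.04 and Cr2 at 1.23 and 0.11. Summed macrophage markers were at 0.677 and 0.830 of the WT value in KO, and at 0.780 and 0.959 without Lyz2, the brightest of them. Summed markers of mesothelial cells and fibroblasts were 1.69 and 1.08 times higher in KO, but 1.11 and 1.06 times without Thy1, their brightest member. T cells also express Thy1, which correlated at 0.96 with the T and NK markers over the 8 arrays. Of the 15 mesothelial and fibroblast markers, 8 were well above background on both arrays in at least 1 genotype, so background makes up part of these sums. Summed markers of mast cells were 1.06 and 1.46 times higher. Nonadherent cells were washed off before stimulation according to the protocol. In RNA of a mixed culture, a larger share of a cell type and more RNA per cell cannot be told apart, and the part of these other cells in the differences was not tested.

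Another arm was higher in KO mainly on replicate 2 or on both arrays and did not follow the lymphocyte markers. Tgtp2, an interferon-inducible GTPase, was at 10.67 in KO against 9.96 in WT on replicate 1 and at 11.16 against 9.61 on replicate 2, with a mean of 1.13 (limma adjusted p of 0.026 with the block). Gbp4, a guanylate-binding protein, had ratios of 1.13 and 0.65 and was the 1 call among 22 interferon and interferon-stimulated genes, whose median was 0.12. The GTPases Ifi47 and Igtp, called and named after their values were seen, had 0.62 and 0.66, and 0.35 and 0.65. Tgtp2 has a close paralogue, so its signal may be shared, and its second, dimmer probe gave 0.10, as that of Vipr1 gave -0.04. Epha2, an ephrin receptor, was at 8.83 against 8.71 on replicate 1 and at 9.07 against 7.05 on replicate 2, so that nearly all of its mean of 1.07 came from replicate 2. Noct, which encodes the rhythmically expressed NADP(H) phosphatase nocturnin, had ratios of 0.54 and 1.52, and Klra2, a lectin-like receptor of the Ly49 family, 0.34 and 1.50.

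Hbegf, a heparin-binding EGF family ligand induced early by LPS, was at 9.94 in KO against 9.04 in WT and at 9.67 against 8.89. The KO and WT values did not overlap, and the mean of 0.85 (95% confidence interval 0.63 to 1.06) had a limma adjusted p of 0.19 without and 0.0058 with the block. Ccnd1, which encodes cyclin D1, had ratios of 0.90 on each array, at 8.52 against 7.62 and at 8.36 against 7.46. Cd5l, an apoptosis inhibitor secreted by resident macrophages, had 0.70 and 1.14, and was the 1 call among 13 markers of large peritoneal macrophages, beside 0.29% of all features called higher. Of these markers 4 were higher and 4 lower on both arrays, beside 24.1% and 24.5% of all features. Timd4, a phosphatidylserine receptor of the same list, had -0.36 and -0.88 and was not called. The apolipoprotein gene Apoc1 had 0.29 and 1.36, and Serpinb1a, an inhibitor of neutrophil serine proteases, 0.53 and 1.00. Of genes named after their values were seen, Nop58, a snoRNP protein, had 0.71 and 0.59, and the ribosome assembly factors Rrs1 and Tsr1 0.70 and 0.46, and 0.78 and 0.29.

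**Figure D3:**
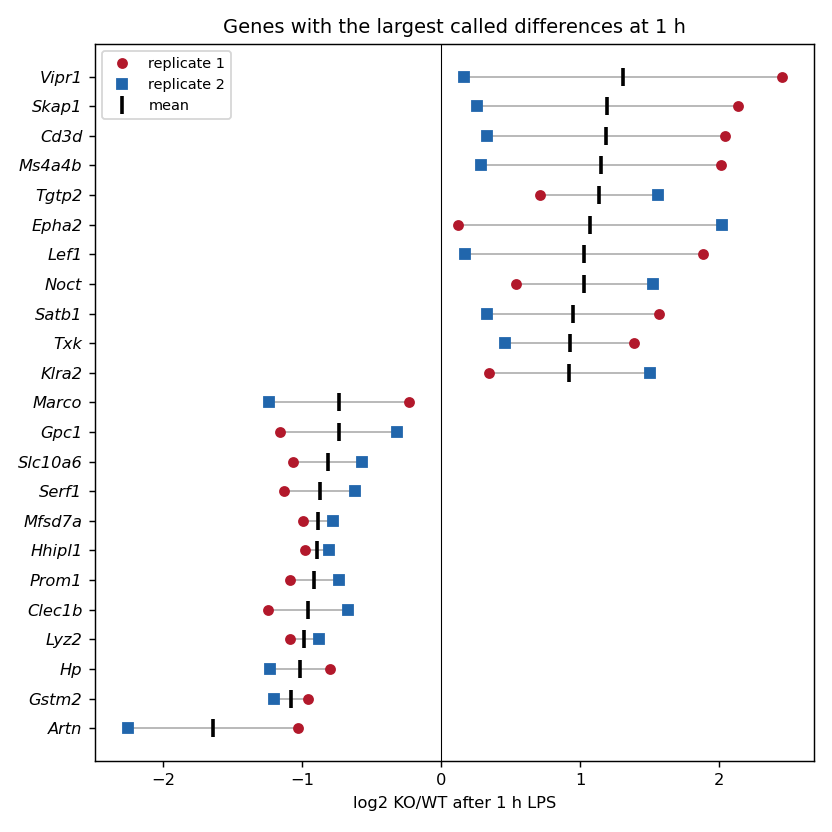
Log2 KO/WT at 1 h (x axis) of 11 of the 12 genes with the largest called increase and of the 12 with the largest called decrease among those of the same sign on both arrays, circles for replicate 1, squares for replicate 2 and ticks for the mean. Vipr1, Skap1, Cd3d, Ms4a4b and Lef1 stretch to replicate 1 and Tgtp2, Epha2, Noct and Klra2 to replicate 2, while Mfsd7a, Hhipl1 and Lyz2 lie close together.

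Among the called genes that were lower in KO on both arrays, Artn had the largest mean decrease. Artn encodes artemin, a ligand of the GDNF family, and was at 8.44 in KO against 9.47 in WT on replicate 1 and at 8.28 against 10.54 on replicate 2. Its mean log2 KO/WT was -1.64 (SE 0.43), with a limma adjusted p of 0.62 without and 0.013 with the block. Artn increased by 1.52 on the log2 scale from no LPS to 1 h in WT and by 0.59 in KO, across channels of different arrays. The change of its ratio, -0.94 (SE 0.61), did not pass the limma test with or without the block. Hp, encoding the haemoglobin scavenger haptoglobin, was at 15.37 against 16.17 and at 15.09 against 16.32. Gstm2, a glutathione S-transferase, had ratios of -0.95 and -1.20, and its other probes gave means of -0.93 and -0.67. Clec1b, the C-type lectin receptor CLEC-2, had -1.25 and -0.67, and Marco, a scavenger receptor for bacteria, -0.23 and -1.24. Further called decreases were those of the stem cell glycoprotein gene Prom1 (-1.09 and -0.74), Hhipl1 (-0.98 and -0.81), Mfsd7a (-0.99 and -0.78), Serf1 (-1.13 and -0.62), the transporter gene Slc10a6 (-1.06 and -0.57) and the proteoglycan gene Gpc1 (-1.16 and -0.32). Second probes of Prom1 and Hhipl1, which were dim, gave means of 0.04 and -0.15.

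The stretch just before the transcription start of the leading gene in each direction is shown, because these genes head the called differences. Sequences are those of RefSeq (GRCm38.p6), 250 bases upstream of the start on the gene's strand, Vipr1 at chr9:121642466-121642715 on the plus strand and Artn at chr4:117929764-117930013 on the minus strand.
Vipr1: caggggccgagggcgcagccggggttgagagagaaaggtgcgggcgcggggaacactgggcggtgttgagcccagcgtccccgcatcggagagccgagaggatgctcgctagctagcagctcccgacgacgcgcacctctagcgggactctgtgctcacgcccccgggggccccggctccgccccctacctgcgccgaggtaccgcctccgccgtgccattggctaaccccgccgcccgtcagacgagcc
Artn: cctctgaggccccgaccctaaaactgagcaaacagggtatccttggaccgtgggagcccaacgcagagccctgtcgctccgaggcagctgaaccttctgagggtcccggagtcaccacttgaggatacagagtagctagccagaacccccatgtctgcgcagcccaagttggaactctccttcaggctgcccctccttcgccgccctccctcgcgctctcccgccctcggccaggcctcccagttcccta
They were searched on both strands for GGGNNTTCC (NF-κB), TGANTCA (AP-1), TGACGTCA (CRE), CCATATTNG (CArG box) and GAAANNGAA (ISRE), any of which would be in capitals. None of these letters occurred in either window, or in those of Cd3d and Gstm2, of the 4 genes matched among the 6 searched (Skap1 and Hp have no entry). Among 32851 windows of this length, the motifs occur in 4.98%, 6.75%, 1.55%, 0.393% and 7.13%.

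A set of 17 named genes was called with ratios of opposite sign on the arrays. Htra1, a secreted serine protease, had -3.90 on replicate 1 and 2.51 on replicate 2, and Pcolce, an enhancer of collagen processing, -4.00 and 2.26. For such a gene the mean of -0.69 or -0.87 describes neither array. Summed markers of steroid-producing cells were at 0.363 of the WT value in KO on replicate 1 and at 1.19 on replicate 2 (0.174 and 1.90 without Cyp17a1, the brightest), and 8 of the 92 named genes called lower (8.70%) had a correlation of at least 0.9 with their median over the 8 arrays, against 1.12% of all named genes. The part of such cells in these values was not tested.

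Among the cytokines of the first LPS response, Il1b, Tnf, Il6 and Il10 moved in opposite directions on the arrays at 1 h. The log2 KO/WT of Il1b was -0.37 and 0.35, that of Tnf -0.20 and 0.07, that of Il6 -0.51 and 0.38 and that of Il10 -0.35 and 0.70. The 95% confidence intervals of their means were -0.51 to 0.50, -0.70 to 0.57, -0.63 to 0.50 and -0.58 to 0.92, which leaves differences of up to about these sizes possible. Tgfb1, the transcript of a FURIN substrate, had 0.03 and -0.14 (-0.42 to 0.31). Without LPS, Il1b had ratios of 1.45 and 1.23 and Il6 1.30 and 1.18. The change of the ratio from no LPS to 1 h did not pass the test for either gene, nor for any other feature, with 0 called in limma with and without the block and 1435 and 527 at an unadjusted p under 0.05.

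Of the 21 inflammatory cytokines and growth factors measured, 1 was called higher (Hbegf, beside 0.29% of all features) and none lower, and 7 were higher and 3 lower on both arrays, beside 24.1% and 24.5% of all features. Csf2, encoding GM-CSF, had the ratios 0.56 and 1.66 and was not called. Of 14 CC chemokines 2 were called lower, Ccl6 at -0.95 and -0.29 and Ccl9 at -0.49 and -0.84, both chemokines made constitutively by myeloid cells, beside 0.3% of all features called lower. Ccl7, the monocyte chemoattractant MCP-3, was at 13.30 in KO against 12.63 in WT and at 13.44 against 11.40, and did not pass the test (limma adjusted p of 0.86 without and 0.12 with the block). None of 12 CXC chemokines was called, beside 0.59% of all features, and Cxcl5 had -0.90 and -0.51.

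None of 27 genes of the LPS receptor complex, its adaptors and kinases was called, and their median ratio was -0.01. None of 25 immediate early factors, 17 NF-κB genes or 17 MAP kinase phosphatase, Sprouty and SPRED genes was called. With 0.59% of all features called, the lack of a call in lists of this size says little. Jun had -0.60 and -0.34, and Fosl1 0.37 and 0.56. From no LPS to 1 h, 22 of the 25 immediate early factors increased less in KO than in WT, beside 18523 of 36931 features in all, and their median change of the ratio was -0.23. Egr1, for example, had ratios of 1.04 and 0.83 without LPS and 0.22 and 0.19 at 1 h, and Fos 0.37 and 0.54 without LPS and -0.54 and 0.39 at 1 h. No member passed the test of that change. A lower change in KO than in WT was also seen for 13 of 14 CC chemokines and 17 of 20 glycolysis genes, but for 0 of 11 B cell markers. Of the 22 interferon and interferon-stimulated genes 1 was called higher (Gbp4), beside 0.29% of all features, and 9 were higher and 3 lower on both arrays, beside 24.1% and 24.5% of all features. Oasl1 had 0.31 and 0.88.

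Among the 9 proprotein convertases Furin was the only call. Pcsk7, which shares substrates with FURIN, had 0.17 and 0.25 (95% confidence interval -0.03 to 0.45), Mbtps1 0.01 and -0.02, and Pcsk1, Pcsk5 and Pcsk6 were not well above background in either genotype. Of 18 TGF-β ligands, receptors and SMADs 1 was called lower, the inhibitory Smad6 at -0.73 and -0.56, and Tgfb3 had 1.14 and 0.42 without a call. Of 19 genes for precursors known to be cleaved by FURIN 2 were called lower, the membrane metalloproteinase Mmp14 at -0.59 and -0.65 and the sorting receptor Sort1 at -0.31 and -0.70, beside 0.3% of all features called lower. Of the 19 genes 13 had opposite signs on the arrays, beside 18954 of 36947 features in all. The other probes of Sort1 gave means of -0.43 and -0.08. Adam17, which releases TNF from the membrane, had -0.08 and -0.30.

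Groups of macrophage function held 1 to 3 calls each, where over all named genes 92 of 20845 were called lower and 81 higher. Of 24 chemoattractant and metabolite receptors 1 was called lower, the formyl peptide receptor gene Fpr2 at -0.63 and -0.73. Of 20 scavenger receptors and C-type lectins 2 were called lower, Marco and Clec1b. Of 17 lysosomal hydrolases and lysozymes 2 were called lower, Lyz2 and the collagenolytic cathepsin gene Ctsk (-0.57 and -0.42), and 1 higher, Ctse (0.61 and 0.36). Of 17 genes of the NRF2 response and haem and iron handling Hp was called lower, 9 were lower on both arrays and 1 higher, and the median ratio was -0.20. Of 9 markers of small peritoneal macrophages and monocytes, Retnla was called lower at -0.81 and -0.35, while 6 were higher and 2 lower on both arrays, with a median of 0.22. Mgl2 of this list had 0.55 and 0.21.

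Some groups without a call leaned one way on both arrays, beside 24.5% of all features lower and 24.1% higher on both. Of 20 genes of glycolysis and itaconate synthesis 11 were lower and 3 higher on both arrays, with a median of -0.17 against -0.0028 over all features. Tpi1 had -0.42 and -0.25 and Gapdh -0.22 and -0.22. Of 21 nuclear-encoded respiratory chain subunits 11 were lower and 3 higher, with a median of -0.11. Of 15 ATF4 targets 8 were higher and 1 lower, with a median of 0.26, and Psat1, of serine synthesis, had 0.41 and 0.48. Of 19 antigen presentation genes 11 were higher and 3 lower, with a median of 0.20, and H2-Aa had 0.51 and 0.10. B cells also express MHC class II genes, and their summed markers were higher in KO on both arrays. The part of B cells in the ratios of this group was not tested. In the groups of prostaglandin synthesis, Fc gamma receptors, inflammasome, adhesion, arginine metabolism and housekeeping genes none was called, beside 0.59% of all features. Of 15 inflammasome genes 7 were lower and 2 higher on both arrays, with a median of -0.08.

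**Figure D4:**
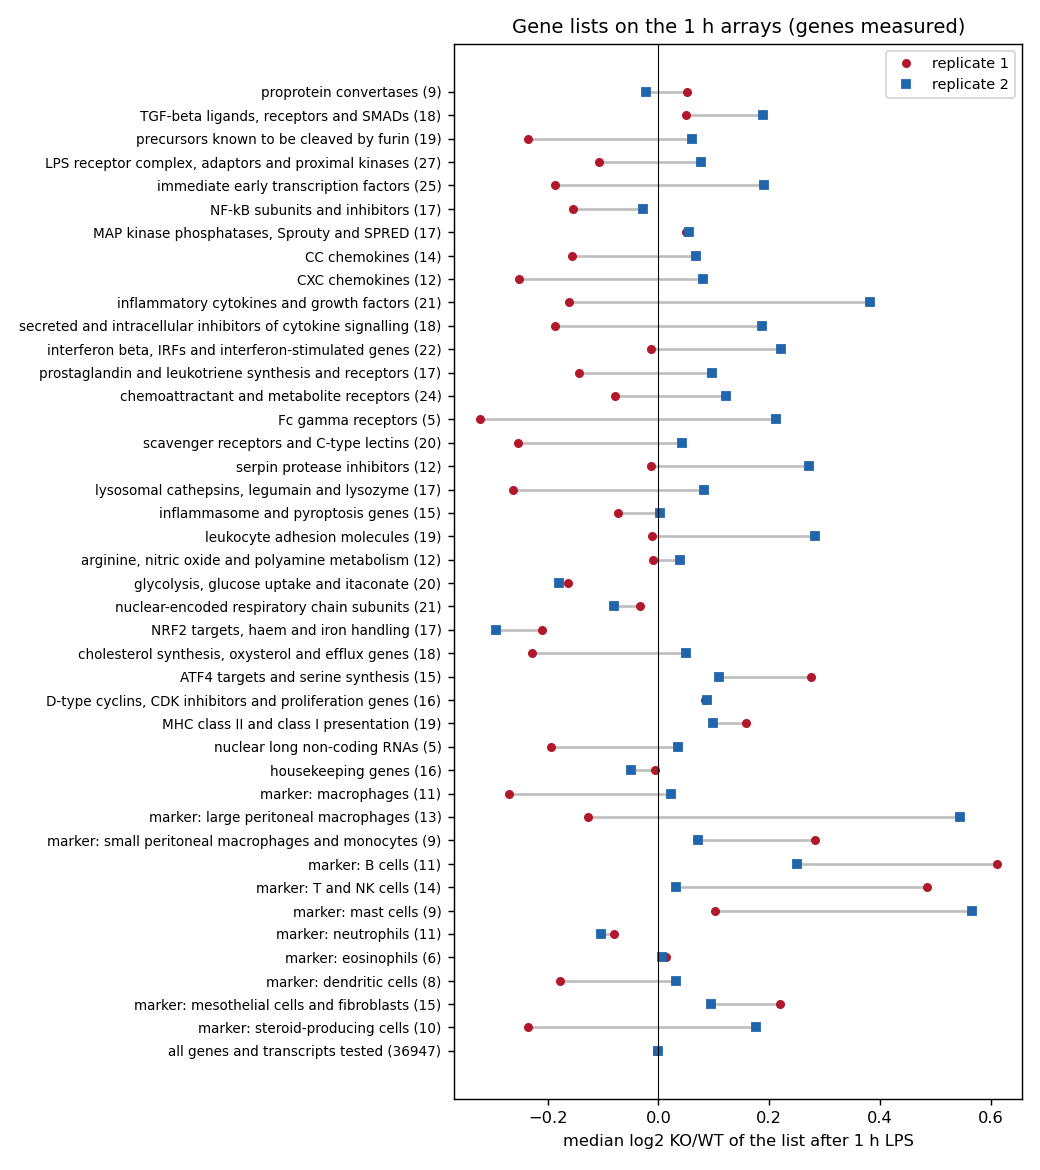
Median log2 KO/WT at 1 h (x axis) of the 41 gene lists and of all features, circles for replicate 1 and squares for replicate 2, with the number of genes measured in brackets. B cell markers lie at 0.61 and 0.25 and T and NK cell markers at 0.48 and 0.03, glycolysis and the NRF2 list lie below 0 on both arrays, and immediate early genes and inflammatory cytokines lie on opposite sides of 0.

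Against the other times, the 1 h ratio of 2 genes stood apart in limma with the block (0.00541% of features) and of none without it, where 774 had an unadjusted p under 0.05. Epha2 was the call among genes of 1 sign at 1 h, with a mean ratio of 1.07 at 1 h beside 0.09 without LPS, -0.20 at 4 h and -0.49 at 24 h. Its ratio on replicate 2 was the higher at every time. Acsbg1, a fatty acid activating enzyme, had -0.53 and 0.46 at 1 h beside means of -0.32, -0.73 and -1.76 at the other times, so its call describes a fall elsewhere rather than a difference at 1 h. Both calls were lost under most other ways of processing, among them the software's processed signals and the ratios of the authors. Furin, lower at 1 h, had ratios of 0.00023 and 0.33 at 4 h. Of the 218 called features 212 had the same direction without LPS (97.2%, beside 61.3% of all features), in a fit to which both times contribute. The mean ratio of Lyz2 was -0.90 there, of Hp -0.74, of Ccnd1 1.40, of Hbegf 0.78 and of Cd3d 0.59. The correlation of mean ratios across all features was 0.54 between 1 h and no LPS, and 0.29 between 1 h and 4 h and between 1 h and 24 h.

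**Figure D5:**
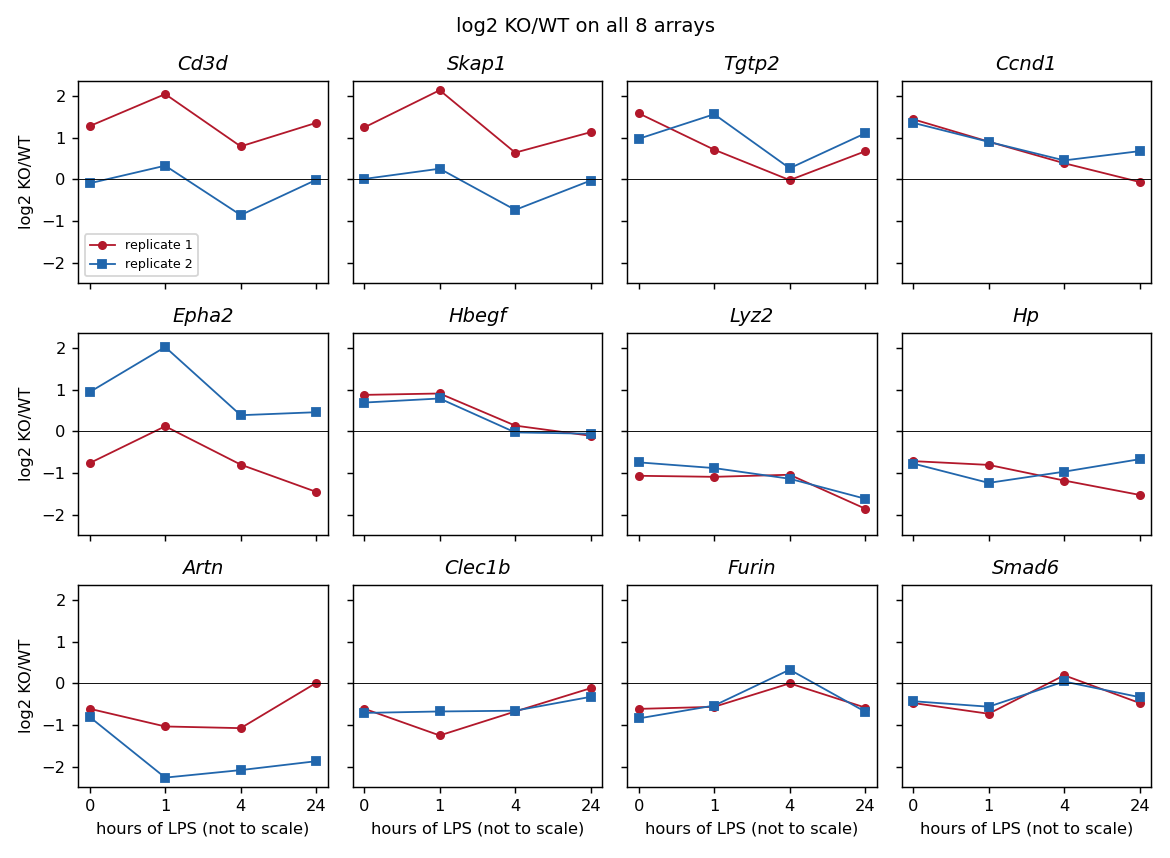
Log2 KO/WT (y axis) on all 8 arrays by hours of LPS (x axis, not to scale), circles for replicate 1 and squares for replicate 2. Cd3d and Skap1 were higher on replicate 1 and Epha2 on replicate 2 at every time, Hbegf was high at 0 and 1 h, Lyz2 was low throughout, and Furin was not lower in KO at 4 h.

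The genes around the altered loci were also examined. Of the 200 nearest named genes around Lyz2 on chromosome 10 none was called, and of the 200 around Furin on chromosome 7 there were 2 (1.00%, beside 0.830% of all named genes). Mex3b, 30 genes from Furin, had 0.87 and 0.29, and Stard5, 33 genes from Furin, had -0.54 and -0.34.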

How the data were processed

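The authors extracted the scans with Agilent Feature Extraction (version 10.7.3 per the labels) and deposited, for each spot and dye, raw median intensity, local background and the software's processed signal, and a matrix of log2 ratios of Cy5 to Cy3, normalized by loess and quantiles. A mean intensity had been planned, but medians are what the files hold. Quality flags are columns of the deposited files. Here the raw intensities were taken through limma 3.58.1 (R 4.3.3) with normexp (offset 50), loess within and quantile normalization between arrays. Control spots and outlier flags were left out, spots of a probe averaged, and the brightest probe taken for a gene. Features whose log2 intensity averaged under 6 were left out. Probes were named through RefSeq accessions (27509 of 55681). Log2 KO/WT of all 8 arrays were fitted with lmFit and eBayes, one coefficient per time (4 residual degrees of freedom, 3 with the replicate block), adjusted by Benjamini-Hochberg over all features, threshold 0.05. Feature Extraction marked spots well above background, 46.2% to 49.4% per dye at 1 h, and with 2 arrays the number of arrays limits precision. The replicate difference correlated between times at 0.476 to 0.680 in all 6 pairs. KO was in Cy5 on every replicate 1 and in Cy3 on every replicate 2. A pairing of the arrays by replicate number and an effect of the dye on single genes therefore cannot be told apart. All arrays share 1 slide and 1 scan. 16 features lack a value on one 1 h array, and none was called. The fit was tested on simulated data. With spreads drawn from the fitted prior, false calls stayed near the nominal rate, but with each feature's own spread the fit with the block made more of them.

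The comparison, the 41 gene lists, the rules and the tests were chosen with earlier results of these data known. Named genes are Furin, Lyz2, Il1b, Tnf, Il6, Il10, Tgfb1 and the convertases, the 12 largest called differences each way at 1 h of the same sign on both arrays and well above background, up to 5 for the other contrasts, and 2 per list by size. Other genes were named after their values were seen, and 1 of the 12 largest increases is not reported here. Alternatives were other background corrections, normalizations, filters and probe rules, leaving out arrays, and the methods' t-test.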

Additional observations from a re-analysis of the deposited data

Results flagged for a closer look

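Differences between the 1 h ratio and that at other times are given here as log2 KO/WT at 1 h minus that of the other time or times. Epha2 stood 1.27 above the mean of the other times and Acsbg1 0.90 above it, both called in limma with the replicate block. For the other genes both arrays at 1 h had one sign and both arrays of another time the opposite sign, and these differences are descriptions. Against unstimulated cells they were -0.57 for Jun, -0.50 for Tnip3, -0.70 for Spry1, -0.45 for Mki67 and -0.32 for Cyp17a1, and none of these passed the limma test of the change. Against 4 h, Furin differed by -0.71 and Smad6 by -0.76, both lower in KO at 1 h and not at 4 h, where one of the ratios of Furin was 0.00023, Mefv by -0.60, Mki67 by -0.78, Oasl1 by 0.64, Il5ra by 0.46 and Ccr3 by 0.36. Against 24 h, Mfsd7a differed by -0.98, Slc10a6 by -1.55, Tnip3 by -0.75, Fosl1 by 0.70, Cxcl14 by 1.34 and Hbegf by 0.93. The differences from 4 h and 24 h were not tested one by one. With 2 arrays a group, no test for a lone outlying array could be made.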

How the results depend on the processing

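Calls are given as a percent of the features tested, with their number. Without the block, no KO/WT difference at 1 h was called under any alternative except the block (0.59%, 218), the methods' t-test (0.00542%, 2 after Benjamini-Hochberg, and 1771 unadjusted) and leaving out replicate 1 of 1 h (0.0271%, 10), so that leaving out arrays gave 0 to 0.0271%. The change from no LPS to 1 h gave 0 to 0.0217% (up to 8) with arrays left out, and with the block 0 to 0.0271% (10 without replicate 1 of 1 h, and 1, or 0.00271%, without either 24 h array). The difference from the other times gave 0 to 0.0271% without the block and 0.00541% (2) with it. With the block these 2 calls became 0 on Aquantile, loess alone, the ratios of the authors, an intensity trend, averaged probes, no background correction, processed signals and features well above background. They became 0.0352% (13) and 0 without replicate 1 and 2 of 1 h, 0 without either unstimulated array, 0.00271% (1) without either 4 h array and 0.0108% (4) and 0.0189% (7) without replicate 1 and 2 of 24 h.

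The 218 calls with the block became 0.103% (38 calls, 37 shared) with averaged probes and 0 on processed signals. With features well above background alone, 55 higher and 52 lower remained of the 218, which is 0.553% of the fewer features tested. They became 0.0542% without replicate 1 of 1 h (20 calls, 2 shared), 0.046% without replicate 2 of 1 h (17 calls, 10 shared), 0.268% without either unstimulated array (99) and 1.59% without either 24 h array (586). Under the other alternatives they were 156 to 222. The causes were not tested.

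In the fit without the block, signs turned for the following ratios. On loess alone or Aquantile Il1b was at 0.042, Il6 at 0.038 and Pcsk1 at 0.012, on the ratios of the authors 0.046, 0.042 and 0.011, Pcsk1 was at 0.0064 without background correction and at 0.37 on processed signals, and Pcsk6 at -0.034 there. With arrays left out, Il1b ranged from -0.37 to 0.35, Tnf from -0.20 to 0.068, Il6 from -0.51 to 0.38, Il10 from -0.35 to 0.70, Tgfb1 from -0.14 to 0.031, Pcsk1 from -0.17 to 0.17, Pcsk2 from -0.19 to 0.16, Pcsk4 from -0.021 to 0.052, Mbtps1 from -0.022 to 0.0081 and Acsbg1 from -0.53 to 0.46. All other named ratios kept their sign under the alternatives run without the block. With the block, over all 18 alternatives, Il1b ranged from -0.51 to 0.50, Tnf from -0.49 to 0.36, Il6 from -0.69 to 0.56 and Tgfb1 from -0.19 to 0.08, and none of these was called. Of 112 genes, 13 took both signs with the block, among them these 4 and 6 convertases. The median of all features moved to -0.07 on processed signals. Furin was called with the block under 7 of 18 alternatives and Lyz2 under 15 of 18. Of the 36947 features 19361 were well above background in at least 1 genotype on both arrays, and the ratios of the others are bounded by background.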
